A study of Homo sapiens with 24 samples.

Results

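The genes described here are direct transcriptional targets of p53, followed in DLD1 cells, an established human colorectal carcinoma line. Of 10 targets named for the description (CDKN1A, MDM2, GDF15, BTG2, PLK3, FAS, BBC3, ZMAT3, TP53INP1 and XPC), 3 are among the 7223 genes of the values used: MDM2, ZMAT3 and TP53INP1, each with a value in all 24 libraries. The other 7 were not analysed here. The assay was TT-seq: a short pulse of a uridine analogue marks the RNA made in that time, and the marked RNA is sequenced, so a value follows ongoing transcription more than the stock of mature mRNA.

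The 12 groups hold 2 libraries each, called biological replicates in the labels, and come from lines in which a subunit of the Integrator complex carries a dTAG tag at its own gene. dTAG13, a small molecule, brings a dTAG-tagged protein to an E3 ubiquitin ligase for degradation. In batch 1, the line with tagged INTS11 (INTS11 line), the line with tagged INTS8 (INTS8 line), and the tagged INTS8 line with ectopic INTS8-N211del (N211del line) each received DMSO or dTAG13 for 3 h. Batch 2 held the INTS11 and N211del lines after 0, 1 and 3 h of dTAG13, with no vehicle group. The promoter of the ectopic gene and whether a line is 1 clone are not given in the labels. No group was an untagged line given dTAG13, so an effect of the molecule alone cannot be told apart from loss of the tagged protein, and the loss itself was not measured.

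p53 is a sequence-specific transcription factor that, after DNA damage and other stress, switches on genes for cell cycle arrest, apoptosis, DNA repair and its own restraint. MDM2 is the ubiquitin ligase that marks p53 for destruction and closes a negative feedback loop; ZMAT3 is a zinc finger RNA-binding protein that acts on splicing and mRNA stability; TP53INP1 is a stress protein that takes part in autophagy and in p53-dependent cell death. Integrator binds paused RNA polymerase II. Its INTS11 subunit is an endonuclease that cuts nascent RNA, and its INTS8 subunit holds protein phosphatase 2A on the complex. The series compares the roles of these endonuclease and phosphatase activities in transcription.

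MDM2 has 2 promoters, and p53 acts mainly through the internal one, which is why that promoter is shown with that of ZMAT3 for contrast. Sequences are from RefSeq on GRCh38.p14, written 5′ to 3′ on the gene's strand. Each covers the 250 bases before the annotated start, at chr12:68808767-68809016 (+ strand) for MDM2 and chr3:179071810-179072059 (- strand) for ZMAT3. Capitals mark adjoining copies of the 10-base p53 half-site consensus, allowing at most 3 mismatches in 20 bases and a spacer of at most 3 bases. The consensus reads the same on both strands, and the mismatch limit was chosen after the matches were seen.
MDM2 internal promoter: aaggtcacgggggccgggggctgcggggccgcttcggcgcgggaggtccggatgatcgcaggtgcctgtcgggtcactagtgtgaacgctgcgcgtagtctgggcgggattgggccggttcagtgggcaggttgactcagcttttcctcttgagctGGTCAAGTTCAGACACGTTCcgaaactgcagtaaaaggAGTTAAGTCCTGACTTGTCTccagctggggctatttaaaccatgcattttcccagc
ZMAT3 promoter: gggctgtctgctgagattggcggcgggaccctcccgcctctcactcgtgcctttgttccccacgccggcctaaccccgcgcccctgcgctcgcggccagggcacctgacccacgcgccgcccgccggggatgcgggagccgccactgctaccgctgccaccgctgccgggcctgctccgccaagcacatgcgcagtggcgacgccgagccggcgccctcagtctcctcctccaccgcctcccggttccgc
The MDM2 internal promoter held 2 such pairs, which do not overlap. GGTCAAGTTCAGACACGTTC, with 2 mismatches, lay 94 to 75 bases before the start, and AGTTAAGTCCTGACTTGTCT, with 3 mismatches, lay 56 to 37 bases before it. The window before the first MDM2 start, chr12:68807922-68808171, held none, its best pair having 5 mismatches. In the ZMAT3 window shown the best pair had 4, and in that of its other annotated start, chr3:179069343-179069592, it had 6. Sequence outside these windows was not searched, so sites elsewhere in either gene would not be seen. Among 35116 RefSeq promoter windows of 300 bases (250 before and 50 after a start, the length searched for the members), 2.67% held a pair with at most 2 mismatches and 18% a pair with at most 3, so a pair with 3 mismatches is common. TP53INP1 had no entry in the promoter table.

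The deposited values, headed FPKM, behave as whole-number units divided by gene length in kilobases, and in batch 2 are also multiplied by a library factor. They are given below unchanged under the name units per kilobase, which in batch 2 therefore means scaled units. Library totals ran from 5517103 to 8119831 units (batch 1) and from 8709273 to 11266600 (batch 2); the number of reads behind a unit is not known. Of 11 colorectal epithelial markers, 9 had values: EPCAM, CDH1, CDX2, KRT8 and KRT18 were high (50.1 units per kilobase or more in every library), CDH17 (8.37 to 17.6) and TFF3 (1.6 to 12) lower, and LGALS4 (0.240 to 1.62 in the 20 libraries that list it) and KRT20 (0 to 0.126) low. The listed haematopoietic and endothelial markers were not analysed here. Chi-square per gene between the libraries of a pair was 0.881 to 1.72, and 6 of the 12 pairs agreed within counting noise. Whether those pairs are separate cultures cannot be told from the values, so the spread behind the p-values may be only technical. Each was kept as 2 libraries, and calls lost when such pairs were averaged to 1 sample are named. All genes together also shifted: the median log2 fold change after 3 h was -0.03 in the INTS11 line, 0.06 in the INTS8 line and 0.21 in the N211del line of batch 1, and 0.08 and 0.18 in the INTS11 and N211del lines of batch 2. At 1 h it was 0.16 and 0.31. Each fold change is therefore given as deposited and again with every library's median removed ("median-removed"). A log2 fold change is on the log2(value + 0.1) scale, and adjusted p-values come from limma with Benjamini-Hochberg adjustment over all genes tested.

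After 3 h of dTAG13, 2 of the 3 genes passed the test in the INTS11 line of batch 1, where 39.1% of all genes did, 2 in the INTS8 line (55.6%), and all 3 in the N211del line (55.6%). In batch 2, 1 of 3 passed in the INTS11 line (55.4% of all genes) and 3 of 3 in the N211del line (63.5%). At 1 h the counts were 1 of 3 in the INTS11 line and 2 of 3 in the N211del line, beside 55.9% and 71% of all genes. With most genes of the table moving, these counts say little of the targets as a set, and the 3 genes did not move alike. The plot of member values by library shows every measurement behind them.

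**Figure D1:**
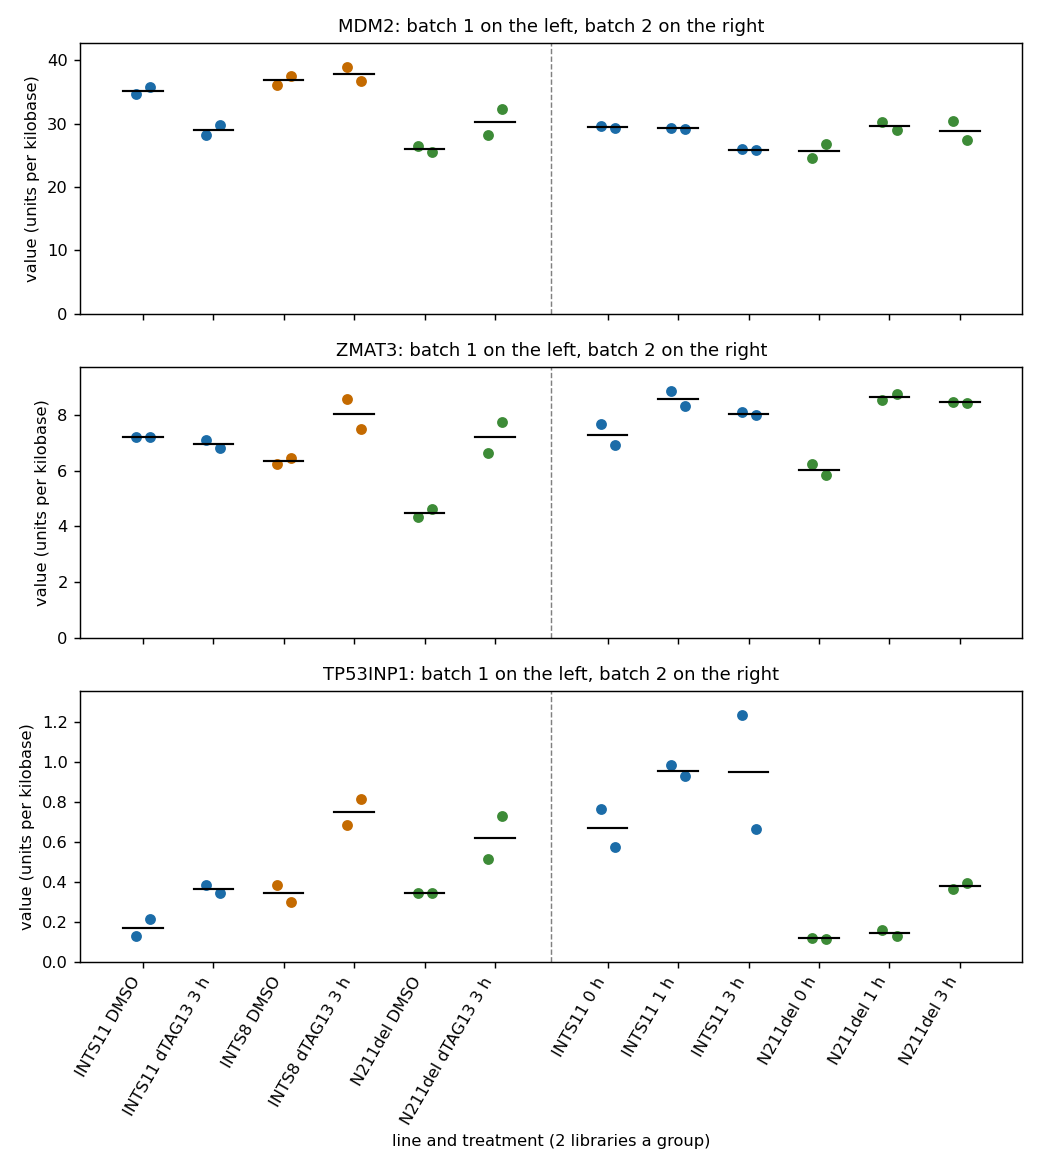
Units per kilobase of MDM2, ZMAT3 and TP53INP1 in each of the 24 libraries (points), with the mean of each pair as a black line. Batch 1 is on the left of each panel and batch 2, whose values carry a library factor, on the right. MDM2 is lower with dTAG13 in the INTS11 line at 3 h in both batches, ZMAT3 is higher in the N211del line in both, and TP53INP1 lies near the low end of the table throughout.

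MDM2, the p53 antagonist, was the most transcribed of the 3 and moved little. It fell in the INTS11 line after 3 h of dTAG13 in both batches. In the N211del line it rose as deposited, at 3 h by about as much as the median of all genes. At 1 h its rise there was 0.20, below the median of 0.31 over all genes. In the INTS11 line of batch 1 MDM2 read 34.65 and 35.72 in DMSO (35.2 ± 0.757, SD, n = 2) and 28.17 and 29.72 with dTAG13 (28.9 ± 1.1, n = 2). Fewer transcribing cells and less new RNA per cell cannot be told apart in such bulk libraries. The groups did not overlap, and the log2 fold change was -0.28 (SE 0.0756, 95% interval -0.44 to -0.12, adjusted p = 0.00553, limma; median-removed -0.25, adjusted p = 0.000976). In batch 2 the same line read 29.57 and 29.27 at 0 h, 29.27 and 29.20 at 1 h, and 25.93 and 25.87 at 3 h. Both 3 h libraries lay below all 4 earlier ones, a fall by 0.18 on the log2 scale from 0 h (adjusted p = 0.0181; median-removed -0.24, adjusted p = 0.00264). At 1 h the change was -0.01 as deposited (95% interval -0.13 to 0.11, adjusted p = 0.896) and -0.16 median-removed (adjusted p = 0.0165).

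MDM2 in the INTS8 line read 36.10 and 37.54 in DMSO and 38.88 and 36.69 with dTAG13. These ranges overlapped, and the log2 fold change was 0.04 (95% interval -0.12 to 0.19, adjusted p = 0.7; median-removed -0.07, adjusted p = 0.164). In the N211del line of batch 1 it went from 26.48 and 25.44 to 28.22 and 32.27 with no overlap, though the dTAG13 libraries stood further apart than those of any other group. The log2 fold change of 0.22 (adjusted p = 0.0187) became -0.04 median-removed (adjusted p = 0.361). In batch 2 that line read 24.61 and 26.78 at 0 h, 30.20 and 29.01 at 1 h, and 30.42 and 27.37 at 3 h. The log2 fold change was 0.20 at 1 h (adjusted p = 0.0076) and 0.17 at 3 h (adjusted p = 0.0230), with every treated library above both at 0 h. Median-removed, the 1 h value turned to -0.15 (adjusted p = 0.0244) and the 3 h value to -0.03 (adjusted p = 0.617).

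Single libraries mattered for these MDM2 calls. The fall in the INTS11 line of batch 1 missed the threshold without dTAG13 replicate 1 (log2 fold change -0.24, adjusted p = 0.0638), and that of batch 2 missed it without any 1 of its 4 libraries (adjusted p 0.0546 to 0.0701). The 3 h rise in the N211del line was lost without DMSO replicate 2 (adjusted p = 0.129) or dTAG13 replicate 2 (0.153) in batch 1, and without 0 h replicate 1 (0.168) or 3 h replicate 1 (0.198) in batch 2. The rise at 1 h was lost without 0 h replicate 1 (0.0677) or 1 h replicate 1 (0.0524). With pairs within counting noise averaged, the adjusted p at 3 h was 0.0933 and 0.158 in the INTS11 and N211del lines of batch 1, and 0.098 and 0.0626 in batch 2.

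ZMAT3, the RNA-binding target, gave the clearest rise of the 3 genes, in the N211del line. There it read 4.324 and 4.617 in DMSO and 6.651 and 7.768 with dTAG13 in batch 1, a rise by 0.67 on the log2 scale (SE 0.101, 95% interval 0.47 to 0.88, adjusted p = 6.44e-06, limma; median-removed 0.41, adjusted p = 0.000226). In batch 2 it read 6.233 and 5.848 at 0 h, 8.538 and 8.767 at 1 h, and 8.480 and 8.454 at 3 h. The rise was in place at 1 h (log2 fold change 0.51, adjusted p = 3.4e-05; median-removed 0.16, adjusted p = 0.0211) and was 0.48 at 3 h (adjusted p = 7.09e-05; median-removed 0.28, adjusted p = 0.00113). No treated library overlapped an untreated one in either batch. Between 1 h and 3 h the change was -0.03 (adjusted p = 0.709; median-removed 0.12).

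In the INTS8 line ZMAT3 went from 6.229 and 6.467 to 8.574 and 7.512, again with no overlap, a log2 fold change of 0.33 (adjusted p = 0.00766; median-removed 0.23, adjusted p = 0.00629). That rise missed the threshold without DMSO replicate 1 (adjusted p = 0.0584), without dTAG13 replicate 1 (0.109), and with noise-level pairs averaged (0.0811). The INTS11 line of batch 1 read 7.200 and 7.219 in DMSO and 7.109 and 6.816 with dTAG13. The change of -0.05 did not pass (95% interval -0.26 to 0.16, adjusted p = 0.719). In batch 2 the INTS11 line read 7.682 and 6.921 at 0 h, 8.857 and 8.326 at 1 h, and 8.106 and 8.001 at 3 h. All 4 treated libraries lay above both at 0 h. The 1 h rise of 0.23 (adjusted p = 0.00779) was lost when medians were removed (0.08, adjusted p = 0.216), without 0 h replicate 2 (0.0600) and without 1 h replicate 1 (0.0582), and the 3 h value of 0.14 did not pass (adjusted p = 0.0669; without 0 h replicate 1, 0.0182).

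TP53INP1, the stress and autophagy target, was barely transcribed: a library held 3 to 19 of its units (batch 1) or 4 to 51 (batch 2), against 950 to 1452 for MDM2 in batch 1. Its mean stood at percentile 2.03 in batch 1 and 8.76 in batch 2 on the per-kilobase scale, where MDM2 stood at 80.2 and 75.9 and ZMAT3 at 21.6 and 32.2. These percentiles are over all genes listed in every library of the batch (6603 and 7223), tested or not. TP53INP1 nonetheless rose after 3 h in 4 of the 5 comparisons. In the INTS11 line of batch 1 it read 0.1282 and 0.2137 in DMSO and 0.3847 and 0.342 with dTAG13 (log2 fold change 0.79, SE 0.206, adjusted p = 0.00439; median-removed 0.82). In the INTS8 line it went from 0.3847 and 0.2992 to 0.684 and 0.8122 (0.94, adjusted p = 0.000508; median-removed 0.84). The N211del line of batch 1 read 0.342 in both DMSO libraries, then 0.513 and 0.7267 (0.69, adjusted p = 0.00708). No group overlapped its control. Median-removed, the N211del value of 0.43 no longer passed (adjusted p = 0.073).

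In batch 2 TP53INP1 in the N211del line read 0.1204 and 0.1135 at 0 h, 0.1609 and 0.1284 at 1 h, and 0.363 and 0.3939 at 3 h. These rest on 4 and 4, 5 and 4, and 12 and 13 units. The 3 h rise was 1.14 on the log2 scale (adjusted p = 0.00298; median-removed 0.94), that at 1 h was 0.17 (adjusted p = 0.556; median-removed -0.18), and the change from 1 h to 3 h was 0.97 (adjusted p = 0.0151), lost without 1 h replicate 2 (0.0759) or 3 h replicate 2 (0.0752), and with a pseudocount of 1 (0.27, adjusted p = 0.0954). At values this low the pseudocount sets the size: with 1 in place of 0.1, the called rises at 3 h were 0.22, 0.38 and 0.27 in the INTS11, INTS8 and N211del lines of batch 1 and 0.30 in the N211del line of batch 2, and each still passed (adjusted p 0.0323, 0.00029, 0.00637 and 0.0446). The INTS11 line of batch 2 read 0.7659 and 0.5716 at 0 h, 0.9828 and 0.9263 at 1 h, and 1.232 and 0.6658 at 3 h. Its 3 h libraries straddled the 0 h ones, and neither time passed (1 h 0.47, adjusted p = 0.14; 3 h 0.41, 95% interval -0.16 to 0.97, adjusted p = 0.196). Without 3 h replicate 2 the 3 h value was 0.80 (adjusted p = 0.0212). In batch 1 the INTS11 rise was lost without DMSO replicate 1 (0.56, adjusted p = 0.0594) and the N211del rise without dTAG13 replicate 2 (0.47, adjusted p = 0.124). TP53INP1 also overlaps NDUFAF6, a mitochondrial assembly factor gene read at 14.1 to 26.7 units per kilobase, and whether counting used strand is not given. NDUFAF6 was at -0.00, 0.20 and 0.28 in the INTS11, INTS8 and N211del lines of batch 1 and at -0.19 and 0.41 at 3 h in the INTS11 and N211del lines of batch 2; its part in the TP53INP1 values was not tested.

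**Figure D2:**
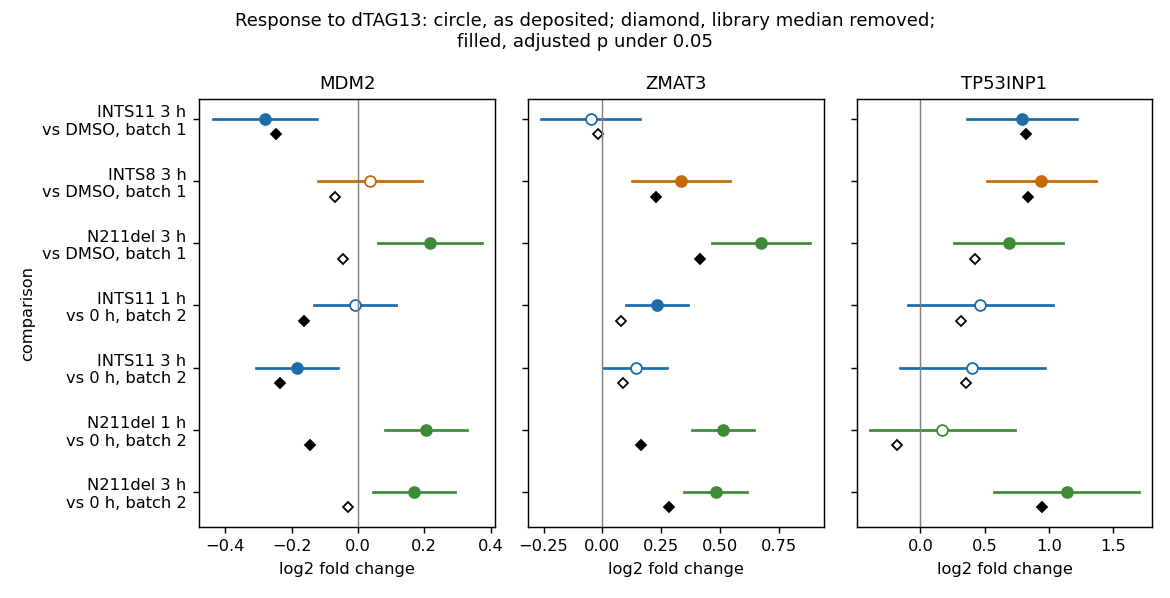
Log2 fold change with its 95% interval for each of the 3 genes in the 5 comparisons at 3 h and the 2 at 1 h, as deposited (circles) and with the median of each library removed (diamonds); filled symbols have an adjusted p under 0.05 (limma). MDM2 lies below 0 on both scales only in the INTS11 line, and the TP53INP1 intervals are the widest. ZMAT3 lies above 0 on both scales in every comparison except that of the INTS11 line of batch 1. Its symbols are filled on both scales only in the INTS8 and N211del lines.

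Untreated levels also differed between lines. In batch 1, 3 of 3 genes passed the test between the N211del and INTS11 lines in DMSO, where 65.5% of all genes did. MDM2 was lower in the N211del line (log2 difference -0.44, adjusted p = 3.14e-05; median-removed -0.23, adjusted p = 0.000842) and so was ZMAT3 (-0.68, adjusted p = 5.16e-06; median-removed -0.47). TP53INP1 was higher (0.72, adjusted p = 0.00398; without INTS11 DMSO replicate 1, 0.0635). Against the INTS8 line in DMSO, from which it was made, the N211del line again read lower for MDM2 (-0.50, adjusted p = 8.32e-06; median-removed -0.19, adjusted p = 0.00409) and ZMAT3 (-0.50, adjusted p = 0.000199; median-removed -0.18, adjusted p = 0.0246). These 2 were the genes called of 3, beside 63.7% of all genes. Between the INTS8 and INTS11 lines 1 of 3 was called (30.7% of all genes), TP53INP1 at 0.72 (adjusted p = 0.0103), which was lost without INTS11 DMSO replicate 1 (0.139) or INTS8 DMSO replicate 1 (0.0978). ZMAT3 there was -0.18 (adjusted p = 0.187; median-removed -0.28, adjusted p = 0.00451). The DMSO groups enter several of these comparisons, which are not independent of each other.

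At 0 h in batch 2 the same order held for MDM2 (N211del minus INTS11, -0.20, adjusted p = 0.00982; median-removed -0.23, adjusted p = 0.00208) and ZMAT3 (-0.27, adjusted p = 0.00256; median-removed -0.30). The MDM2 difference was lost without N211del 0 h replicate 1 (adjusted p = 0.0804). TP53INP1 was on the other side in the 2 batches: it was lower in the N211del line at 0 h (means 0.117 and 0.669, log2 difference -1.81 after adding 0.1 to each value, adjusted p = 0.000129; -0.58 after adding 1), though higher in DMSO in batch 1. In all, 3 of 3 were called at 0 h, beside 70% of all genes. The batches differ in vehicle and in scaling and were not tested against each other. In batch 1, MDM2 was ordered from lowest to highest as N211del in DMSO, INTS11 with dTAG13, N211del with dTAG13, INTS11 in DMSO, INTS8 in DMSO and INTS8 with dTAG13, and ranges overlapped between INTS11 and N211del with dTAG13 and between the INTS8 groups. For ZMAT3 the order was N211del in DMSO (mean 4.47), INTS8 in DMSO (6.35), INTS11 with dTAG13 (6.96), then INTS11 in DMSO and N211del with dTAG13 (both 7.21, overlapping), and INTS8 with dTAG13 (8.04), whose range overlapped that of N211del with dTAG13.

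From 1 h to 3 h in batch 2, 0 of the 3 genes passed in the INTS11 line (15.6% of all genes) and TP53INP1 alone in the N211del line (37.2%).

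The lines were then compared in their response, as the difference between 2 log2 fold changes. In batch 1, MDM2 and ZMAT3 both responded more positively in the N211del than in the INTS11 line, 2 of 3 genes, beside 48.5% of all genes. For MDM2 the difference was 0.50 (95% interval 0.28 to 0.72, adjusted p = 0.000917, limma; median-removed 0.20, adjusted p = 0.0231), and for ZMAT3 0.72 (0.43 to 1.02, adjusted p = 0.000437; median-removed 0.43, adjusted p = 0.00384). At 3 h in batch 2, with separate libraries, the differences were 0.35 for MDM2 (0.18 to 0.53, adjusted p = 0.00447; median-removed 0.21, adjusted p = 0.0286) and 0.34 for ZMAT3 (0.15 to 0.53, adjusted p = 0.00761; median-removed 0.20, adjusted p = 0.0473), again 2 of 3 beside 50.9% of all genes. All 4 of these calls held without any 1 library. With noise-level pairs averaged, the ZMAT3 value of batch 2 had an adjusted p of 0.0582. At 1 h, which shares its 0 h libraries with the 3 h comparison, MDM2 differed by 0.21 (adjusted p = 0.0457) and ZMAT3 by 0.28 (adjusted p = 0.0202), 2 of 3 beside 48.6%. Median-removed, these were 0.02 (adjusted p = 0.844) and 0.08 (adjusted p = 0.374). Leaving out any of 7 of the 8 libraries lifted the MDM2 value at 1 h to an adjusted p of 0.0584 to 0.153. The ZMAT3 call at 1 h was lost without INTS11 0 h replicate 1 (0.0631), INTS11 1 h replicate 2 (0.0737), N211del 0 h replicate 2 (0.0639) or N211del 1 h replicate 2 (0.0644). Averaging noise-level pairs gave 0.0788 and 0.0553 for these 2 genes.

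**Figure D3:**
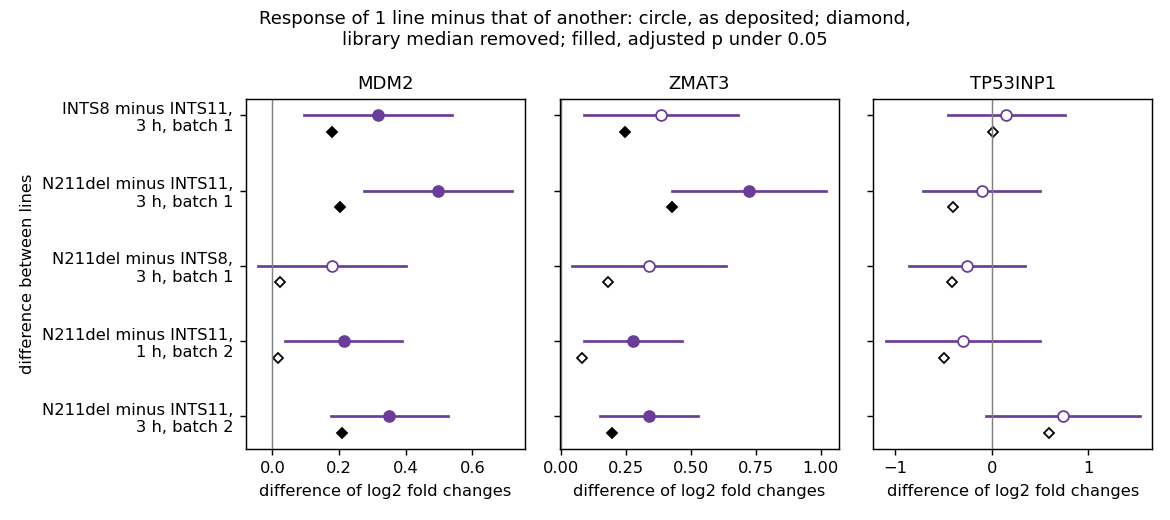
Difference between the log2 fold changes of 2 lines, with its 95% interval, for the 3 genes in 5 pairs of responses, as deposited (circles) and with library medians removed (diamonds); filled symbols have an adjusted p under 0.05 (limma). For MDM2 and ZMAT3 the N211del response lies above the INTS11 response at 3 h in both batches on both scales, and no TP53INP1 difference passed.

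Between the INTS8 and INTS11 lines, whose responses are set against the same INTS11 libraries as above, 1 of 3 genes passed, beside 25.4% of all genes. MDM2 differed by 0.32 (95% interval 0.10 to 0.54, adjusted p = 0.0312; median-removed 0.18, adjusted p = 0.0342). That call was lost without INTS11 DMSO replicate 2 (0.0901), INTS11 dTAG13 replicate 1 (0.122), INTS8 DMSO replicate 1 (0.120) or 2 (0.0533), or INTS8 dTAG13 replicate 1 (0.114), and with noise-level pairs averaged (0.273). ZMAT3 differed by 0.38 (0.09 to 0.68, adjusted p = 0.0521; median-removed 0.25, adjusted p = 0.0417). Between the N211del and INTS8 lines 0 of 3 passed with limma, beside 11.1% of all genes. MDM2 differed by 0.18 (-0.04 to 0.40, adjusted p = 0.24) and ZMAT3 by 0.34 (0.04 to 0.64, adjusted p = 0.108), and without N211del dTAG13 replicate 1 both passed (adjusted p 0.0272 and 0.0199). No TP53INP1 difference passed in the 5 comparisons, and its intervals were wide: at 3 h in batch 2 the difference was 0.74 (-0.06 to 1.53, adjusted p = 0.111; without INTS11 3 h replicate 1, 0.0149).

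Across the 12 groups, with each batch centred on its own mean, the group means of MDM2 and ZMAT3 had a Pearson correlation of 0.66, MDM2 and TP53INP1 0.08, and ZMAT3 and TP53INP1 0.33. The genes with the most similar pattern were COPS4 (0.97) and BRWD3 (0.95) for MDM2, FOXO3 (0.97) and SNX16 (0.96) for ZMAT3, and RASSF9 (0.95) and CCNG2 (0.95) for TP53INP1. These are the best of 6268 or 6269 genes, describe 12 points that share libraries and scaling, and carry no test.

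A wider list of 79 known p53 targets had 49 members tested in batch 1 and 50 in batch 2. After 3 h in batch 1, 14 rose and 6 fell in the INTS11 line, 25 and 9 in the INTS8 line, and 33 and 4 in the N211del line. In batch 2, 31 rose and 4 fell in the INTS11 line, and 34 rose and 6 fell in the N211del line. Their share that rose was 28.6%, 51%, 67.3%, 62% and 68%, beside 19.4%, 34.6%, 48.5%, 36% and 49.7% of all genes, of which 19.8%, 21%, 7.1%, 19.3% and 13.8% fell. The median log2 fold change of the list was 0.02, 0.28, 0.34, 0.20 and 0.37, against -0.03, 0.06, 0.21, 0.08 and 0.18 over all genes. Median-removed, the rises and falls were 16 and 7, 23 and 12, 21 and 11, 29 and 6, and 27 and 9, where 26.1%, 30.7%, 26.9%, 31.8% and 30.9% of all genes rose and 24.5%, 36.4%, 35.2%, 28.9% and 35.1% fell on that scale. With noise-level pairs averaged, 19 rather than 35 genes passed in the INTS11 line of batch 2.

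Of the 49 targets tested in both batches, 13 (26.5%) rose in all 5 comparisons, and none fell in all 5; over all genes 12.1% rose and 2.19% fell in all 5. The 13 were ACER2, ATF3, CD82, DRAM1, E2F7, KITLG, PLK2, PMAIP1, PPM1D, PRDM1, RAP2B, SERTAD1 and TP53I3. With medians removed the count was again 13 (11.1% of all genes rose and 11.4% fell in all 5 on that scale), of which 10 were shared: PMAIP1, PRDM1 and RAP2B dropped to 4 comparisons, SESN2, TNFRSF10D and TP53I11 joined, and CCNG1 fell in all 5. SERTAD1, a transcriptional co-regulator of the cell cycle, read 18.2 and 17.5 in the INTS8 line in DMSO and 74.9 and 80.9 with dTAG13 (log2 fold change 2.12, adjusted p = 5.12e-09). ATF3, a stress-response transcription factor, went there from 14.8 and 14.0 to 71.3 and 68.3 (2.27, adjusted p = 2.17e-16), and in the INTS11 line it rose by 0.58 and 0.79 in batches 1 and 2. PLK2, a polo-like kinase, went from 47.2 and 44.4 to 185 and 186 in the INTS8 line (2.02). In the N211del line of batch 2 PLK2 went from 96.6 and 97.9 to 238 and 240 (1.30). The 5 values of KITLG, the ligand of the KIT receptor, were 0.56, 1.33, 1.43, 0.29 and 1.18, those of CD82, a membrane tetraspanin, 0.34, 0.81, 1.39, 0.55 and 1.51, and those of PMAIP1, which encodes the pro-apoptotic protein NOXA, 0.45, 0.79, 0.44, 0.28 and 1.12. As deposited each was smallest in the INTS11 line of batch 1 or 2, but median-removed PMAIP1 was smallest in the N211del line of batch 1 (0.18).

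**Figure D4:**
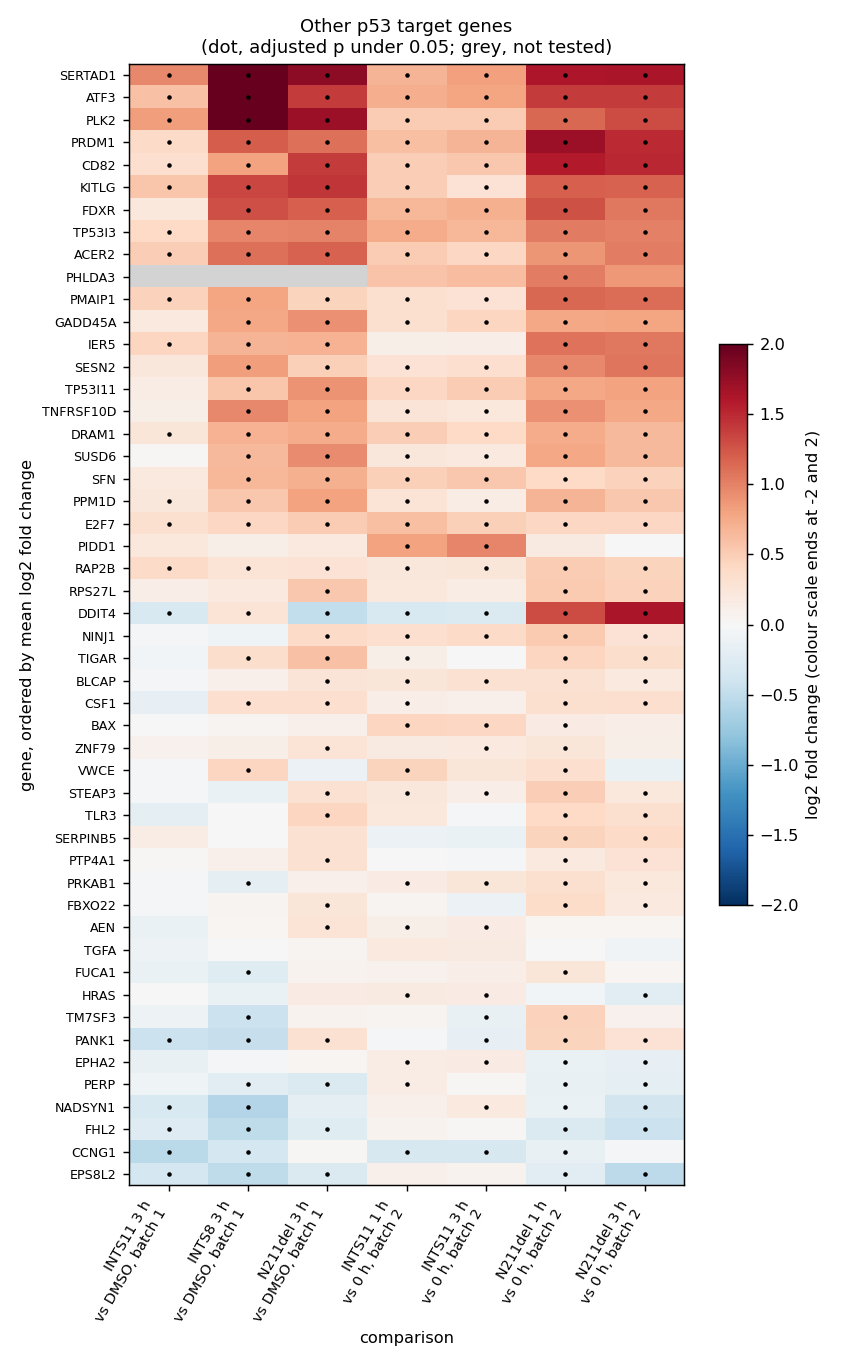
Log2 fold change of 50 genes of the wider p53 target list in 7 comparisons (5 at 3 h and 2 at 1 h), as deposited, on a colour scale that ends at -2 and 2; dots mark an adjusted p under 0.05 (limma) and grey a gene not tested. SERTAD1, ATF3 and PLK2 are the strongest rises after 3 h in the INTS8 line, and DDIT4 falls and rises in different batches of the N211del line.

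Other targets went against that direction or differed between batches. CCNG1, cyclin G1, fell in the INTS11 line from 63.0 and 59.5 to 40.6 and 44.1 in batch 1 (-0.53, adjusted p = 4.88e-06) and by 0.32 in batch 2, fell by 0.35 in the INTS8 line, and was at 0.03 and -0.02 in the N211del line. FHL2, a LIM-domain cofactor, gave -0.26, -0.50, -0.24, 0.03 and -0.43, and all but the fourth, from the INTS11 line of batch 2, passed. EPS8L2, an actin regulator, gave -0.35, -0.50, -0.29, 0.06 and -0.52, with the same exception. DDIT4, an inhibitor of mTORC1 signalling, fell in the N211del line of batch 1 from 397 and 358 to 260 and 275 (-0.49, adjusted p = 7.97e-05) and rose in that line in batch 2 from 37.0 and 36.1 to 107 and 121 (1.63, adjusted p = 5.61e-07). Its level without dTAG13 thus also stood far apart in the 2 batches. PIDD1, which encodes a death-domain adaptor, rose only in the INTS11 line of batch 2 among the 5 (9.68 and 8.07 to 16.7 and 18.3, 0.98, adjusted p = 0.000155), and the difference from the other comparisons was not tested. PANK1, a coenzyme A synthesis enzyme, fell in the INTS11 and INTS8 lines (-0.43, -0.46 and, in batch 2, -0.17) and rose in the N211del line as deposited (0.31 and 0.28; median-removed 0.05 and 0.09).

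Of 29 regulators of p53, 13 were tested. In the INTS11 line 0 rose and 3 fell in batch 1, and 1 rose and 4 fell in batch 2. In the INTS8 line 4 rose and 5 fell, and in the N211del line 6 rose and 1 fell in batch 1 and 6 rose and 5 fell in batch 2. Of all genes, 19.4% rose and 19.8% fell in the INTS11 line of batch 1, 36% and 19.3% in that of batch 2, 34.6% and 21% in the INTS8 line, and 48.5% and 7.1%, then 49.7% and 13.8%, in the N211del line. With 13 genes, several of these counts lie near those shares, among them the 3 falls in the INTS11 line (23.1%) and the 6 rises in the N211del line (46.2%) of batch 1. Median-removed, the rises and falls in that order were 1 and 5, 1 and 6, 2 and 7, 3 and 7, and 3 and 8. The share of the 13 that fell was 38.5%, 46.2%, 53.8%, 53.8% and 61.5%, beside 24.5%, 28.9%, 36.4%, 35.2% and 35.1% of all genes. The share that rose was 7.69%, 7.69%, 15.4%, 23.1% and 23.1%, beside 26.1%, 31.8%, 30.7%, 26.9% and 30.9%. ATR, the kinase that signals replication stress, fell in all 5 (-0.26, -0.52, -0.30, -0.31 and -0.57), also when medians were removed. MDM4, the MDM2 partner that blocks the p53 activation domain, fell in the INTS11 line from 23.3 and 23.7 to 16.9 and 17.2 in batch 1 (-0.46, adjusted p = 0.000388) and from 22.4 and 21.2 to 15.7 and 15.1 in batch 2 (-0.50, adjusted p = 1.88e-05). It fell in the INTS8 line from 27.6 and 27.7 to 21.6 and 19.7 (-0.42, adjusted p = 0.000427) and in the N211del line of batch 2 from 20.1 and 19.8 to 17.0 and 16.2 (-0.26, adjusted p = 0.000443). In the N211del line of batch 1 its value of -0.15 did not pass (adjusted p = 0.171), though median-removed it fell in 5 of 5 (-0.41 to -0.55). SIRT1, a deacetylase that acts on p53, rose in the INTS8 line from a mean of 26.4 to 46.4 (0.81) and in the N211del line (0.96 and 0.97), and was at -0.14 in the INTS11 line in both batches, passing only in batch 2 (adjusted p = 0.0185).

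Relatives of the 10 named targets, genes of the same families or pathways, had 19 of 35 members tested in batch 1 and 20 in batch 2. In batch 1, 9 rose and 5 fell in the INTS11 line, 11 and 5 in the INTS8 line, and 10 and 1 in the N211del line (median-removed 10 and 6, 10 and 6, and 9 and 8). In batch 2, 10 rose and 5 fell in the INTS11 line and 13 rose and 2 fell in the N211del line (median-removed 10 and 6, and 11 and 5). The share that rose was 47.4%, 57.9%, 52.6%, 50% and 65%, beside 19.4%, 34.6%, 48.5%, 36% and 49.7% of all genes, so that in the N211del line of batch 1 it was close to the share over all genes. Median-removed, it was 52.6%, 52.6%, 47.4%, 50% and 55%, beside 26.1%, 30.7%, 26.9%, 31.8% and 30.9%. The share that fell was 26.3%, 26.3%, 5.26%, 25% and 10% as deposited, beside 19.8%, 21%, 7.1%, 19.3% and 13.8% of all genes. With medians removed it was 31.6%, 31.6%, 42.1%, 30% and 25%, beside 24.5%, 36.4%, 35.2%, 28.9% and 35.1%. The median log2 fold changes of the relatives were 0.11, 0.63, 0.44, 0.27 and 0.65. Of the 19, 8 (42.1%) rose in all 5 comparisons, beside 12.1% of all genes: BCL2L11, BMF, CDKN1C, CDKN2C, PLK2, PMAIP1, TOB2 and TP53INP2. Median-removed, 7 of the 8 did so (11.1% of all genes), PMAIP1 being the exception. On that scale 4 of the 19, BID, CDKN1B, MDM4 and RAD23B, fell in all 5, beside 11.4% of all genes. PLK2 and PMAIP1 are also in the wider target list, and MDM4 is also among the p53 regulators above. TP53INP2, the paralogue of TP53INP1 and likewise an autophagy factor, read 3.23 and 3.80 in DMSO and 6.80 and 5.30 with dTAG13 in the INTS11 line of batch 1 (0.76), and 3.92 and 3.00 then 9.79 and 9.22 in the INTS8 line (1.44). Its other 3 h values were 1.54 in the N211del line of batch 1, and 0.95 in the INTS11 line of batch 2, and in the N211del line of batch 2 it went from 3.25 and 4.82 to 9.70 and 9.39. It had also risen at 1 h (0.95 and 0.90), where TP53INP1 did not pass; the genes were not tested against each other. CDKN1C, the p57 inhibitor of cyclin-dependent kinases, went from 8.22 and 7.04 to 44.2 and 56.7 in the INTS8 line (adjusted p = 3.08e-11), and rose by 1.54 on the log2 scale in the INTS11 line of batch 1, from a mean of 1.76 to 5.28. BCL2L11 and BMF, BH3-only genes of apoptosis, rose by 1.68 and 1.69 in the INTS8 line and by 0.45 and 0.84 in the INTS11 line of batch 1. CDKN1B, the p27 inhibitor, fell by 0.38 and 0.45 in the INTS11 and INTS8 lines of batch 1 and by 0.18 in the INTS11 line of batch 2, and was at -0.01 and 0.05 in the N211del line.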

How the data were processed

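TT-seq values of 24 libraries (12 groups of 2) were used as deposited, with dTAG13 times from the sample titles, since the treatment protocol gives 3 h throughout. The authors deposited 1 table of FPKM per library. The submitters' processing notes name STAR 2.7.5c, DESeq2 1.26.0, Picard 2.23.3, SAMtools 1.9 and Trim Galore 0.6.6, and the builds mm10 and hg19, without roles; the counter and its strand setting are not given in the sources used here. Per the labels, library preparation kept strand. FPKM values multiplied by gene length gave whole numbers in 100% of cases in batch 1 and at least 99.9% in batch 2 (tolerance 0.02), after division by a library factor of 0.565 to 0.753. A factor applied before rounding in batch 1 would not be seen, so the agreement of pairs with counting noise there is uncertain.

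Each batch was fitted apart with limma 3.58.1 (R 4.3.3) on log2(value + 0.1), with 1 mean per group over the batch's 12 libraries, trended robust empirical Bayes and Benjamini-Hochberg adjustment at 0.05, two-sided, over genes with a mean of at least 0.1 (6579 and 6950 genes, 18 contrasts). Tables were handled with Python 3.11.15, numpy 2.4.6 and pandas 2.3.3 and drawn with matplotlib 3.10.9. On simulated data made from the INTS11 3 h comparison of batch 1 (6547 genes tested), 28 of 50 changes of 1.25-fold and 49 of 50 of 1.5-fold were recovered, with 9 false calls. The simulation gave all groups the same baseline, changed few genes, added independent noise and held no shift of all genes. Its rates therefore need not hold in the real comparisons, where many genes were called and medians shifted. Alternatives were other pseudocounts and filters, median centring, a replicate block, fewer libraries and leaving out each library; voom on the recovered units and averaging of noise-level pairs were chosen after seeing the data. The members, the lists and the wider tests were chosen with earlier results of these data known. From each list the 3 largest rises and falls among called genes with a mean of at least 1 in each 3 h comparison could be named, and for each member the 2 genes of most similar pattern; ACER2 and the other genes that rose or fell in all comparisons, and NDUFAF6, were named after their values were seen. Symbols matched for 7169 of 7223 genes. Same-numbered libraries of different groups did not deviate together (correlations -0.118 to 0.107 in batch 1 and -0.103 to 0.068 in batch 2), so the numbers were not used as pairs.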

Additional observations from a re-analysis of the deposited data

Results flagged for a closer look

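All 7 results set out here are differences between the responses of 2 lines that passed limma's test of the difference itself, as log2 values. The MDM2 response to dTAG13 was higher in the INTS8 than in the INTS11 line by 0.32, and higher in the N211del than in the INTS11 line by 0.50 at 3 h in batch 1, by 0.21 at 1 h in batch 2 and by 0.35 at 3 h in batch 2. ZMAT3 responded more in the N211del than in the INTS11 line by 0.72 at 3 h in batch 1, 0.28 at 1 h in batch 2 and 0.34 at 3 h in batch 2. The differences at 1 h did not pass once library medians were removed (adjusted p 0.844 for MDM2 and 0.374 for ZMAT3, limma), and those at 3 h did.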

How the results depend on the processing

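Removing each library's median reversed 10 of the fold changes and differences of the 3 genes. It turned MDM2 to -0.068 in the INTS8 line, -0.045 (batch 1), -0.029 (3 h, batch 2) and -0.15 (1 h) in the N211del line, 0.12 from 1 h to 3 h in that line, and -0.037 between the INTS8 and INTS11 lines in DMSO. TP53INP1 turned to 0.039 from 1 h to 3 h in the INTS11 line and -0.18 at 1 h in the N211del line, and ZMAT3 to 0.0093 and 0.12 from 1 h to 3 h in the INTS11 and N211del lines. Pseudocount 1 turned the TP53INP1 response difference between the N211del and INTS11 lines of batch 1 to 0.048. Leaving out 1 library turned MDM2 in the INTS8 line to -0.0050 (without dTAG13 replicate 1; highest 0.079) and in the N211del line from 1 h to 3 h to 0.039 (without 3 h replicate 2; lowest -0.11). For TP53INP1 it gave 0.34 in the INTS11 line from 1 h to 3 h (without 3 h replicate 2; lowest -0.46), -0.077 for the INTS8 minus INTS11 response (without INTS11 DMSO replicate 2; highest 0.38), -0.13 for N211del minus INTS8 in DMSO (without INTS8 DMSO replicate 2; highest 0.15), and 0.13 and 0.11 for the N211del minus INTS11 response of batch 1 (without INTS11 DMSO replicate 1 or N211del dTAG13 replicate 1; lowest -0.33).

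The number of the 3 genes called moved as follows. A count within a ratio of 1.5 of the main one, such as 2 in place of 3, was not taken as moved. Such changes are left out here and from the ranges without 1 library given below. Among them, 3 became 2 by loss of MDM2 in the N211del line at 3 h. This happened in both batches with only the libraries compared or with noise-level pairs averaged, and median-removed in batch 2. For INTS11 at 3 h in batch 1, 2 became 1 with a filter at a mean of 1 (which drops TP53INP1 by construction) or with noise-level pairs averaged. For INTS11 at 3 h in batch 2, 1 became 0 averaged and 2 with voom, and from 1 h to 3 h 0 became 1 with voom. For INTS8, 2 became 1 with that filter or averaged. For N211del, 3 became 1 median-removed in batch 1, and 1 became 0 from 1 h to 3 h with that filter or pseudocount 1. Between INTS8 and INTS11 in DMSO, 1 became 2 median-removed and 0 with that filter, pseudocount 1, only the libraries compared, or voom. For the INTS8 minus INTS11 response, 1 became 2 median-removed, with only the libraries compared, pseudocount 1 or voom, and 0 averaged. For N211del minus INTS11, 2 became 0 median-removed or averaged and 1 with the replicate block at 1 h, and 1 averaged at 3 h. For N211del minus INTS8, 0 became 1 with voom. The wider list in the INTS11 line of batch 2 went from 35 to 19 when averaged. The cause was not tested, save where the filter or fewer samples sets it.

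Without 1 library in turn, the counts ranged from 1 to 2 (INTS11, batch 1), 0 to 1 (INTS11 at 3 h, batch 2), 0 to 1 (INTS11 at 1 h), 1 to 2 (INTS8), 1 to 3 (N211del, batch 1), 1 to 2 (N211del at 1 h), 0 to 1 (N211del, 1 h to 3 h), 0 to 1 (INTS8 minus INTS11 in DMSO), 0 to 2 (INTS8 minus INTS11 response), 0 to 1 (N211del minus INTS11 at 1 h) and 0 to 2 (N211del minus INTS8). With the replicate number as a block, the MDM2 response difference at 1 h had an adjusted p of 0.0580 and no other call of the 3 genes changed; the wider list then had 21, 33, 37, 32 and 40 genes called in the 5 comparisons at 3 h, against 20, 34, 37, 35 and 40. TP53INP1 rests on so few units that a change of its size in other lines could be missed.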
